A study of Mus musculus with 2 samples.

Results

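The microRNA genes of the miR-106b-25 and miR-106a-363 clusters were examined in small RNA of the mouse embryonic liver at day 13.5. The 9 genes were chosen by name as the members of the 2 paralogues of the cluster that runs from Mir17 to Mir92-1 in the non-coding gene Mir17hg: Mir106b, Mir93 and Mir25 on chromosome 5, and Mir106a, Mir18b, Mir20b, Mir19b-2, Mir92-2 and Mir363 on chromosome X. They are 9 of the 1973 microRNA genes counted, and all 9 were found in the tables under their Ensembl identifiers. The libraries, biological replicates 1 and 2, came from separate biosamples of healthy B6NCrl livers, each pooled from male and female embryos, with no transgene and no treatment named in the labels. There is 1 group of 2 libraries, so levels are given as mean ± SD with no p-value, since an exact test over 2 libraries cannot give a two-sided p below 0.5.

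A polycistronic microRNA cluster is transcribed as a long primary RNA from which the nuclear enzyme Drosha cuts each hairpin, and Dicer then releases the mature strands that guide repression of messenger RNAs. Target choice rests mainly on the seed, bases 2 to 8 of the mature strand, so genes with the same seed form a family. The Mir17hg cluster and its paralogues are tied to proliferation, and miR-106b and miR-93 repress the cell-cycle inhibitor Cdkn1a. Mice that lack either of these paralogues alone are viable, while loss of miR-106b-25 together with the Mir17hg cluster is lethal to the embryo at an earlier stage than loss of the Mir17hg cluster alone. The embryonic liver is at this age a site of blood formation with many dividing red cell precursors, beside hepatoblasts, endothelium and mesenchyme.

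The mature strands that carry the family seeds are shown because the genes are compared below by family as well as by cluster. All 9 genes matched RefSeq (build GRCm38.p6), and the sequences are RefSeq's, written from the 5′ end, with the seed in capitals. The miR-17 family shares AAAGUGC, and its members of these clusters are:
mmu-miR-106b-5p: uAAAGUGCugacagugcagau
mmu-miR-93-5p: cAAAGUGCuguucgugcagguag
mmu-miR-106a-5p: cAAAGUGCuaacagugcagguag
mmu-miR-20b-5p: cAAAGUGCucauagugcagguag
with these from the Mir17hg cluster:
mmu-miR-17-5p: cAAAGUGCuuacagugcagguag
mmu-miR-20a-5p: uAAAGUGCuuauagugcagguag
The miR-18 family, of which Mir18 belongs to the Mir17hg cluster, shares AAGGUGC:
mmu-miR-18b-5p: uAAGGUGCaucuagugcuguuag
mmu-miR-18a-5p: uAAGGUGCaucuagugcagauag
The miR-19 family shares GUGCAAA, and miR-19b comes with the same mature sequence from Mir19b-2 and from Mir19b-1 of the Mir17hg cluster:
mmu-miR-19b-3p: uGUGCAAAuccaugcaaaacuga
mmu-miR-19a-3p: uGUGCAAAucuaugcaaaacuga
The miR-25 family shares AUUGCAC, and miR-92a comes with the same mature sequence from Mir92-2 and from Mir92-1 of the Mir17hg cluster:
mmu-miR-25-3p: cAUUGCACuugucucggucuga
mmu-miR-363-3p: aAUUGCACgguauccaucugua
mmu-miR-92a-3p: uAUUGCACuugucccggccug

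Most of these relatives differ at few bases, counted from 1 at the 5′ end of the mature strand. miR-106a differs from miR-17 at 1 of 23 bases (A10U), miR-20b from miR-20a at 2 (C1U and C10U), and miR-18b from miR-18a at 2 (U18A and U20A). miR-93 is nearest to miR-20b, at 3 of 23 bases (G10C, U11A and C13A), and differs from miR-20a and from miR-17 at 4 each. miR-106b differs from miR-17 (U1C, G10U and A20G), from miR-20a and from miR-106a at 3 of 21 bases each. miR-25 differs from miR-92a at 3 of 21 bases (C1U, U14C and U18C). miR-363 shares the seed with miR-25 but differs from it at 13 of 22 bases. The miR-25 seed is also carried by Mir32, with 1436 counts in replicate 2 and 980 in replicate 1, and by Mir92b, with 293 and 462 counts, and both enter the sums of that family. A search of all RefSeq mature strands found these 4 seeds on 2 further genes, Mir6383 with the miR-17 seed and Mir367 with the miR-25 seed, and neither had a count in either library.

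The miR-106b-25 hairpins lie on the minus strand of chromosome 5 within 498 bases (build GRCm38, annotation GENCODE M21). All 3 sit in intron 13 of the main protein-coding transcript of Mcm7, which encodes a subunit of the helicase that opens DNA for replication. They are shown 5′ to 3′ with the mature strand in capitals, because they come from the same intron yet gave unequal counts.
Mir106b, chr5:138165737-138165818: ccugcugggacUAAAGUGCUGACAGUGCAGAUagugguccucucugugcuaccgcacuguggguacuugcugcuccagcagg
Mir93, chr5:138165523-138165610: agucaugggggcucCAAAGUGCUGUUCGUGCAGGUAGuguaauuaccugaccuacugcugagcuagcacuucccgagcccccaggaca
Mir25, chr5:138165321-138165404: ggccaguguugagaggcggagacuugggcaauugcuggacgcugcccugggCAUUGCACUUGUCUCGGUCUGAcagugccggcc
The mature strand lies in the 5′ arm of Mir106b and Mir93 and in the 3′ arm of Mir25. The miR-106a-363 hairpins lie on the minus strand of chromosome X within 875 bases, with Mir106a first at 52742503 to 52742567 and Mir363 last at 52741693 to 52741767. The start of the Mir106a hairpin overlaps the last annotated exon of the non-coding gene Kis2, and no host gene is annotated over the other 5.

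The deposited values are counts of reads per gene. Counts on the strand of the gene came to 4286742 in replicate 2 and 2607403 in replicate 1, and levels are given as counts per 1000000 of these totals (CPM). A small RNA read holds a whole mature strand, so counts were not divided by hairpin length. Of all reads, 32.0% in replicate 2 and 36.7% in replicate 1 mapped to several places and are in no gene's count. Markers of liver cells were present: the hepatocyte list reached a sum of 85387 CPM in replicate 2 and of 84575 CPM in replicate 1, with 5 of 5 genes detected. The erythroid list, with 3 of 3 genes detected, reached 33035 CPM in replicate 2 and 17989 CPM in replicate 1, a ratio of 1.84. Of its genes, only Mir451a was higher in replicate 2, at 26342 CPM against 10750 CPM in replicate 1. Mir144 was at 5873 and 6405 CPM and Mir486 at 820 and 834 CPM, with replicate 2 given first. The endothelial, leukocyte and mesenchymal lists, with 3 of 3, 4 of 5 and 5 of 6 counted genes detected, reached 55232, 12279 and 23859 CPM in replicate 2, against 58209, 11567 and 24825 CPM in replicate 1. The pluripotent cell list, with 7 of 9 genes detected and Mir367 at 0, reached 344 CPM in replicate 2 and 412 CPM in replicate 1. Of the neural list 0 of 5 counted genes were detected: Mir9-2 and the 3 Mir124a genes were at 0 in both libraries, but their mature strands come from several loci, so a 0 sets no limit on them. The limit for detection was 10 counts in both libraries. All 9 genes of these clusters were detected, beside 367 of all 1973 genes (18.6%).

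By counted reads, the Mcm7-hosted cluster was far the more abundant of these paralogues. Its 3 genes had a sum of 31014 CPM in replicate 2 and of 29017 CPM in replicate 1, or 3.0% ± 0.14 of all counts (SD, n = 2). The 6 genes of the X-linked cluster had a sum of 923 CPM in replicate 2 and of 879 CPM in replicate 1, or 0.0901% ± 0.00312. The first sum was 33.6 times the second in replicate 2 and 33.0 times in replicate 1, a log2 ratio of 5.06 ± 0.02. Mir92-2 and Mir19b-2 share their mature strands with Mir17hg genes, and reads that fit several places are in no count. The X-linked sum may thus be too low, and these ratios too high. In a bulk sample, fewer cells that make a microRNA and less of it per cell cannot be told apart.

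Mir93 led, with 84388 counts in replicate 2 (19686 CPM) and 43892 in replicate 1 (16834 CPM), and took place 17 among all genes by mean level. Its partner with the same seed, Mir106b, had 44485 counts in replicate 2 (10377 CPM) and 29270 in replicate 1 (11226 CPM), at place 24. Mir25, the only member of this cluster with the miR-25 seed, was far lower at 951 CPM in replicate 2 and 958 CPM in replicate 1, at place 102. The ranges of the 3 genes did not overlap, and their order was the same in both libraries. The third hairpin of the intron thus gave 3.07% of the cluster's counts in replicate 2 (95% exact interval 2.97% to 3.16%) and 3.30% in replicate 1 (3.18% to 3.43%). Such intervals cover counting error only.

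**Figure D1:**
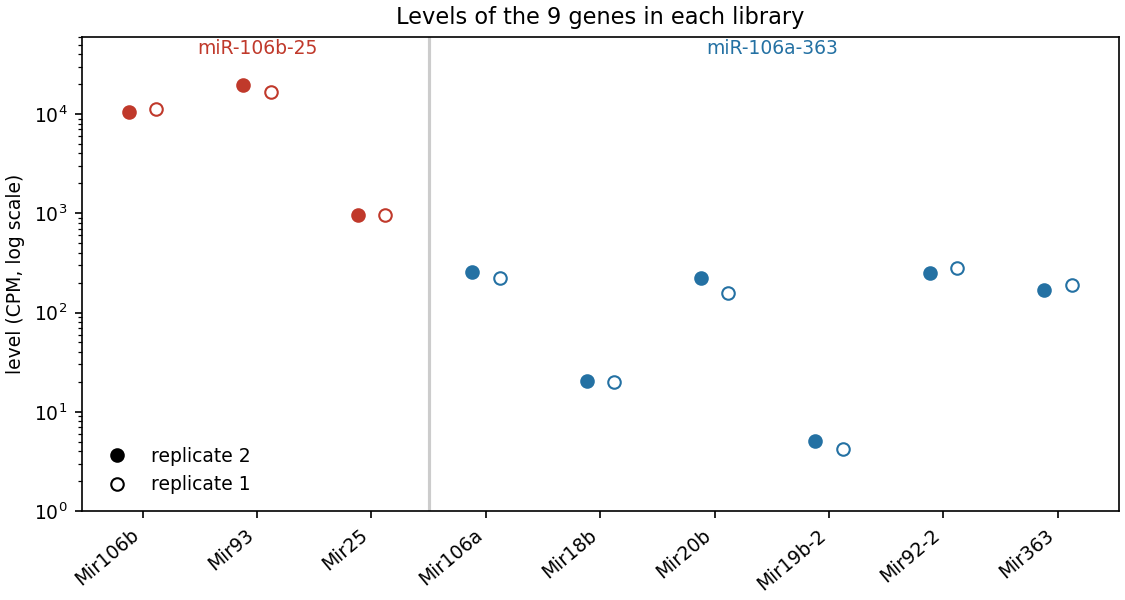
Level of each gene in CPM (log scale) in replicate 2 (filled) and replicate 1 (open), with miR-106b-25 in red and miR-106a-363 in blue. Mir93 and Mir106b lie at 10377 CPM or above in both libraries, Mir25 at 951 and 958 CPM, and the X-linked genes between 4.22 and 282 CPM.

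Within the X-linked cluster 4 genes stood close together and 2 far below. Mir92-2 had 250 CPM in replicate 2 and 282 CPM in replicate 1, Mir106a 256 and 225 CPM, Mir20b 225 and 159 CPM, and Mir363 167 and 189 CPM, each with replicate 2 given first. Mir92-2 and Mir106a lay above Mir20b and Mir363 in both libraries, though the ranges of Mir106a and Mir20b overlapped. Within each of these pairs the genes could not be ranked, since Mir92-2 and Mir106a changed places between the libraries, as did Mir20b and Mir363. Mir18b, with 88 counts in replicate 2 (20.5 CPM) and 52 in replicate 1 (19.9 CPM), lay 8.79 times below Mir363 by mean. Mir19b-2 was lowest, with 22 counts in replicate 2 (5.13 CPM, 95% exact interval 3.22 to 7.77) and 11 in replicate 1 (4.22 CPM, 2.11 to 7.55). In all, the means of this cluster spanned 56.8-fold, those of miR-106b-25 19.1-fold and those of the Mir17hg cluster 1124-fold. Mir19b-2 and Mir19b-1, the lowest genes of their clusters, have counts that are uncertain for a reason given with their sequences. The same holds for Mir92-2, the highest X-linked gene by mean, so 56.8-fold and 1124-fold are spans of counted reads only. A level near 5 CPM still lay above the limit set by a count of 0 (3 counts), which is 0.700 CPM in replicate 2 and 1.15 CPM in replicate 1.

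Level did not follow the order of hairpins along the cluster. In miR-106b-25 the second hairpin was the highest, and in miR-106a-363 the fifth had the highest mean, though it was not separable from the first. The profile along the X-linked cluster was like that of the Mir17hg cluster at the miR-18 and miR-19 genes. These stood below the neighbouring miR-17 family genes in both clusters. Mir18b lay at 20.2 CPM by mean between Mir106a and Mir20b at 240 and 192 CPM, as Mir18 did at 7914 CPM between Mir17 and, past Mir19a, Mir20a at 49109 and 24782 CPM. At the miR-92a genes the profiles differed. Mir92-2 had the highest mean of the X-linked cluster, at 266 CPM, while Mir92-1, at 8365 CPM, stood below Mir17 and Mir20a. Efficiency of adapter ligation was not measured, and the counts of Mir19b-2, Mir19b-1, Mir92-2 and Mir92-1 are uncertain for a reason given with their sequences.

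**Figure D2:**
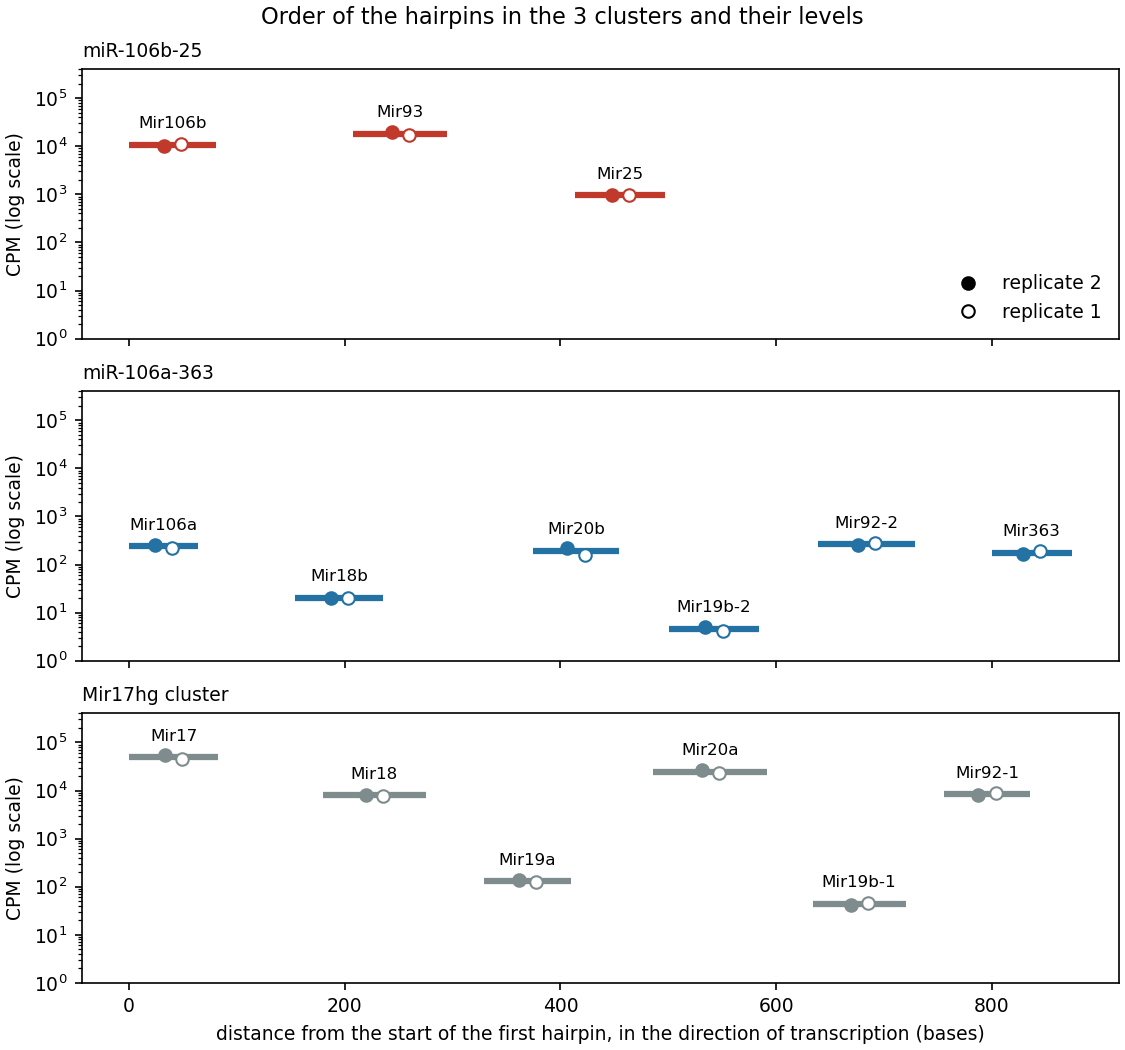
Mean level (bars, CPM on a log scale) of each hairpin against its distance in bases from the start of the first hairpin of its cluster, with replicate 2 as filled and replicate 1 as open points; the width of a bar is the length of the hairpin. The miR-19 genes are the lowest in both clusters that hold them, at 4.68 CPM for Mir19b-2 and 43.7 CPM for Mir19b-1 by mean. The counts of Mir19b-2 and Mir19b-1 are uncertain for a reason given with their sequences.

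Set against the Mir17hg cluster, which held 9.65% of counts in replicate 2 and 8.42% in replicate 1, miR-106b-25 was lower by 3.11-fold in replicate 2 and 2.90-fold in replicate 1. For miR-106a-363 the distance was 105-fold in replicate 2 and 95.8-fold in replicate 1. In log2 these ratios were -1.59 ± 0.07 and -6.65 ± 0.09 (SD, n = 2). Both rest on sums that hold the uncertain counts of genes with identical mature strands. The distance was not the same for each gene. For Mir93 and Mir106b the choice of relative is open, since Mir17 and Mir20a are equally near to each by mature sequence. Mir93 stood at 73.9% of the count of Mir20a in replicate 2 and 73.4% in replicate 1, a log2 ratio of -0.44 ± 0.01, but at 36.8% and 37.6% of Mir17. Mir106b stood at 39.0% of Mir20a in replicate 2 and 49.0% in replicate 1, and at 19.4% and 25.1% of Mir17. Mir25 stood at 11.8% of Mir92-1 in replicate 2 and 11.04% in replicate 1, though the count of Mir92-1 is uncertain, as given with its hairpin.

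The X-linked genes other than Mir363 stand in the same order as their relatives in the Mir17hg cluster, and they were compared pair by pair. Mir19a, at place 3 of the Mir17hg cluster, has no counterpart in the X-linked cluster. Mir18b was lower than Mir18 by the widest margin, 396-fold in replicate 2 and 386-fold in replicate 1. Mir106a was lower than Mir17 by 209-fold and 199-fold, and Mir20b lower than Mir20a by 118-fold and 144-fold, with replicate 2 given first. Mir106a thus had 0.478% of the count of Mir17 in replicate 2 and 0.502% in replicate 1, while their mature strands differ at 1 base. Whether misread miR-17 strands add to the count of Mir106a was not tested. The same holds for Mir18b, at 0.253% of Mir18 in replicate 2 and 0.259% in replicate 1, which differs from it at 2 bases. It also holds for Mir20b, at 0.844% of Mir20a in replicate 2 and 0.693% in replicate 1. Its mature strand differs from miR-20a and from miR-17 at 2 bases each.

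**Figure D3:**
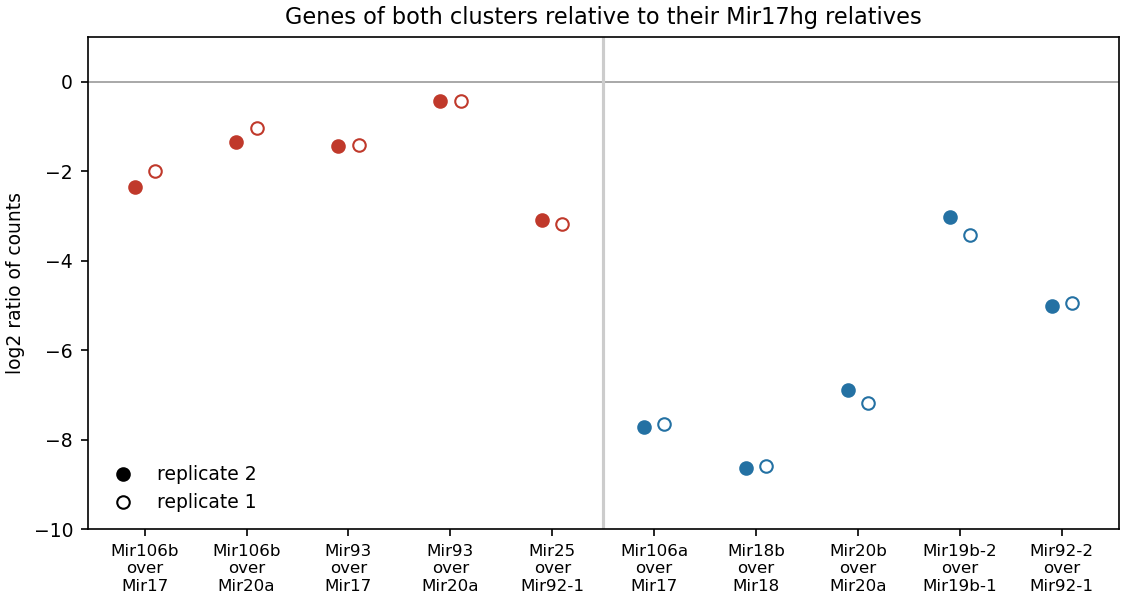
Log2 ratio of the counts of each gene of miR-106b-25 (red) and miR-106a-363 (blue) over a relative in the Mir17hg cluster, both Mir17 and Mir20a for Mir106b and Mir93, in replicate 2 (filled) and replicate 1 (open); the line at 0 marks equal counts. Mir93 over Mir20a lies at -0.44 in both libraries, and Mir18b over Mir18 is lowest at -8.63 and -8.59.

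Margins were narrower for the genes with identical mature strands. Mir92-2 was lower than Mir92-1 by 32.3-fold in replicate 2 and 30.8-fold in replicate 1, and Mir19b-2 lower than Mir19b-1 by 8.14-fold and 10.8-fold. These hairpins are shown with the longest run of bases shared between the pair in capitals, which covers the whole mature strand.
Mir92-2, chrX:52741838-52741928: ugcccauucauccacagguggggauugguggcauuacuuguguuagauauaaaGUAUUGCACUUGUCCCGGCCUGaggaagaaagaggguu
Mir92-1, chr14:115044427-115044506: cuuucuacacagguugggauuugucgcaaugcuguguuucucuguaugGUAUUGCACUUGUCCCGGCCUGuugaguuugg
Mir19b-2, chrX:52741983-52742066: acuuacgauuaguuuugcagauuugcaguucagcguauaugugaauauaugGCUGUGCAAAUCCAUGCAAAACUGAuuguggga
Mir19b-1, chr14:115044305-115044391: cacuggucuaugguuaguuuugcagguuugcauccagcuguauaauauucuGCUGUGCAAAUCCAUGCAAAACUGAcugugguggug
The shared run is 22 bases in the miR-92a pair and 25 in the miR-19b pair. A read that lies within it fits both loci and was not assigned to a gene in these tables, so the counts of Mir92-2 and Mir19b-2 are uncertain, and so are those of Mir92-1 and Mir19b-1. The other 7 genes shared no run of 20 bases with any of 2202 annotated mouse microRNA genes at another locus. The longest was 17 bases, between Mir18b and Mir18.

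Summed over the genes of each seed family, the miR-17 family held 10.3% ± 1.03 of all counts (SD, n = 2). A gene's count holds both arms of its hairpin, so family sums and shares are not of seed-bearing strands alone. Of this family, miR-106b-25 supplied 27.2% in replicate 2 and 29.2% in replicate 1 through Mir93 and Mir106b, and miR-106a-363 supplied 0.434% and 0.399% through Mir106a and Mir20b. The remainder came from Mir17 and Mir20a. Mir93 alone made up 17.8% of the family in replicate 2 and 17.5% in replicate 1.

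The miR-25 family was smaller, at 1.02% ± 0.0591 of all counts. Mir25 supplied 9.68% of it in replicate 2 and 8.99% in replicate 1, and Mir92-2 and Mir363 together 4.24% and 4.42%. Its other sources, with replicate 2 given first, are Mir92-1 with 82.0% and 81.4%, Mir32 with 3.41% and 3.53%, and Mir92b with 0.696% and 1.66%. Mir32 lies in an intron of Tmem245. Reads that fit both Mir92-1 and Mir92-2 are in neither count. The family sum may thus be too low and the share of Mir25 too high. In the counts that remain for Mir92-1 and Mir92-2, the arms of the hairpin were not told apart. Mir363, the last hairpin of the X-linked cluster, has no counterpart at the end of the Mir17hg cluster. It had 66.8% of the count of its neighbour Mir92-2 in replicate 2 and 67.1% in replicate 1, a log2 ratio of -0.58 ± 0.004.

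In the families without a gene in miR-106b-25, the X-linked cluster supplied little. Mir18b gave 0.252% of the miR-18 family in replicate 2 and 0.258% in replicate 1. Mir19b-2 gave 2.80% of the miR-19 family in replicate 2 (95% exact interval 1.76% to 4.21%) and 2.41% in replicate 1 (1.21% to 4.28%). The whole miR-19 family summed to 179 ± 5.82 CPM, below Mir25 alone at 954 ± 5.09 CPM, and the uncertain counts of the miR-19b pair enter that sum.

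**Figure D4:**
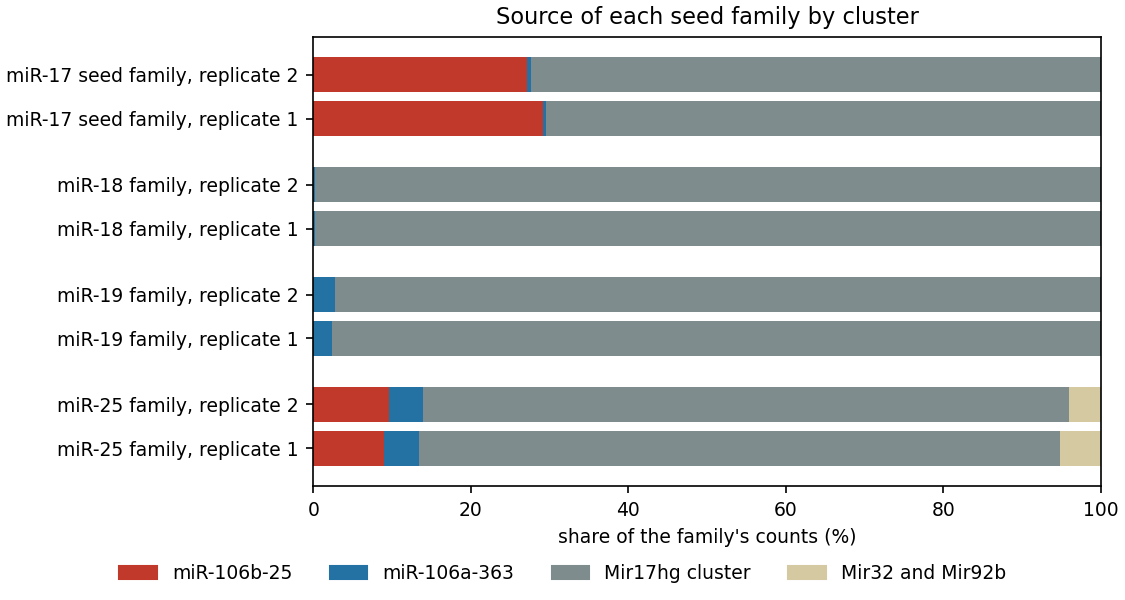
Share of the counts of each seed family (%) by cluster of origin in replicate 2 (upper bar of each pair) and replicate 1 (lower bar). The red part, miR-106b-25, takes 27.2% and 29.2% of the miR-17 family and 9.68% and 8.99% of the miR-25 family. It has no gene in the miR-18 and miR-19 families. The uncertain counts of the miR-92a and miR-19b pairs enter the miR-25 and miR-19 families. Counts are of whole genes, with both arms of each hairpin.

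The counts of each gene in the libraries were set against the split of the totals in an exact binomial test (two-sided), with p-values adjusted by the Benjamini-Hochberg method over all 711 genes with a count. It compares these 2 libraries and no conditions, and it covers counting error only: reads are taken as independent molecules, and the spread between samples, estimated over the detected genes as a biological coefficient of variation of 13.3%, is not part of it. At an adjusted p under 0.05 it called 3 of the 9 genes, or 33.3%, against 20.1% of all genes tested. Of the 3, 2 were higher and 1 was lower in replicate 2, against 8.58% and 11.5% of all genes. The test calls small differences where counts are high: among genes with at least 1000 counts in each library it called 65.9%, and 2 of the 3 genes lie there. The median absolute log2 difference of the 9 genes was 0.18, against 0.17 over the 367 detected genes, which were not matched to them by level.

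The 3 called genes all carry the miR-17 seed, as does Mir106a, which was not called, and the 3 did not move the same way. Outside the 9 genes, the test also called Mir17 and Mir20a, and Mir18, Mir92-1, Mir32 and Mir92b, which carry other seeds. Mir93, at 19686 CPM in replicate 2 and 16834 CPM in replicate 1, had a log2 difference of 0.23, higher in replicate 2 (adjusted p = 2.68e-156 in the exact test). Mir106b, from the same intron, was at 10377 CPM in replicate 2 and 11226 CPM in replicate 1, lower in replicate 2 with a log2 difference of -0.11 (adjusted p = 5.21e-24, exact test). The ratio of Mir93 to Mir106b was therefore 1.9 in replicate 2 and 1.5 in replicate 1, and Mir93 took 63.5% of the cluster in replicate 2 and 58.0% in replicate 1. Mir20b had the largest difference of the 9 genes, with 964 counts in replicate 2 and 414 in replicate 1, a log2 difference of 0.50 (adjusted p = 1.84e-08, exact test). Of the 367 detected genes, 65 differed by at least as much, Mir20b included.

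No other gene of these clusters was called. Mir25 differed least, at -0.01 in log2, and its sign turned with other scalings. Mir106a was at 0.19 (adjusted p = 0.0545, exact test), Mir92-2 at -0.18 (adjusted p = 0.0561, exact test) and Mir363 at -0.18 (adjusted p = 0.131, exact test). Mir18b and Mir19b-2 differed by 0.04 and 0.28 on few counts. The calls of Mir106a and Mir92-2 hang on the genes tested: with genes under 10 counts left out, both passed and 5 of the 9 genes were called, against 34.2% of the 447 genes then tested. With the limit of 10 counts set for each library, the same 5 were called, against 40.9% of 367. Mir106a also passed with TMM scaling, DESeq2 scaling and totals without Mir451a, where 19.0%, 19.1% and 19.4% of all genes were called.

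**Figure D5:**
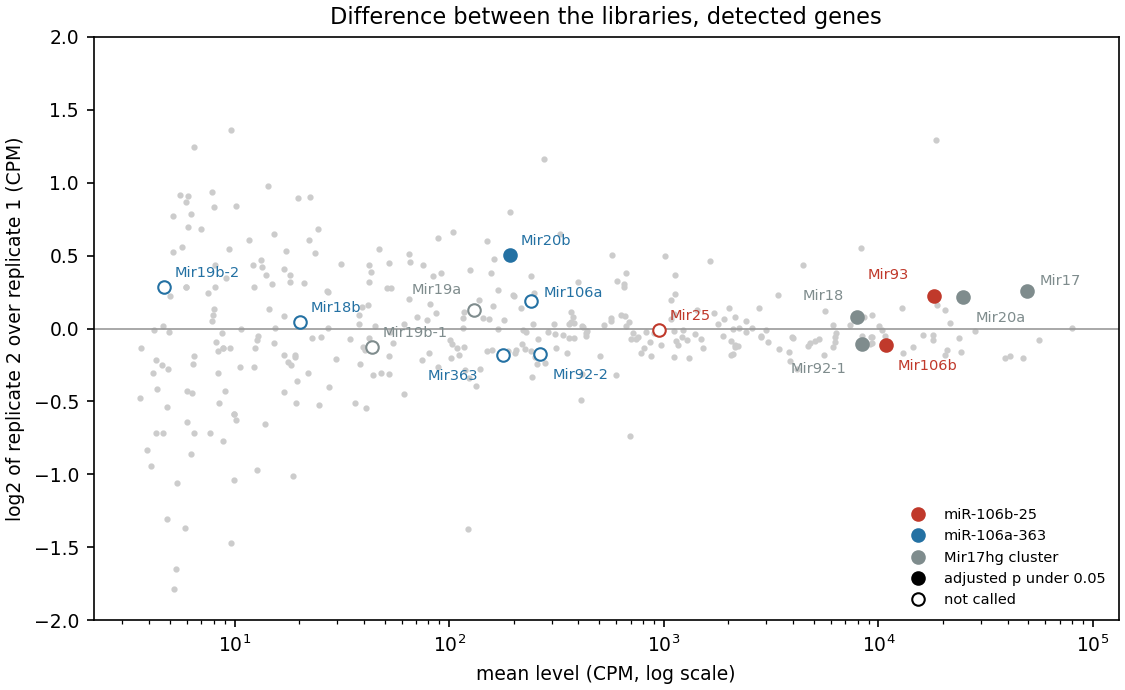
Log2 ratio of the CPM of replicate 2 over replicate 1 against mean level (CPM, log scale) for the 367 detected genes (grey), with the genes of the 3 clusters in colour; filled points were called at an adjusted p under 0.05. Mir93 at 0.23 lies beside Mir20a at 0.22 and Mir17 at 0.26, above Mir106b at -0.11.

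Sorted by seed, the differences between the libraries leaned one way in the miR-17 and miR-25 families. Of the 6 miR-17 family genes, 5 were higher in replicate 2 and Mir106b was lower, with a median of 0.22 in log2. All 6 miR-25 family genes were lower, from -1.37 for Mir92b to -0.01 for Mir25, with a median of -0.17. With TMM scaling Mir25 turned to 0.02. Of the 3 miR-19 genes, 2 were higher and 1 was lower, from -0.13 to 0.28, and the 2 miR-18 genes were higher, by 0.04 and 0.08. Of the 367 detected genes, 44.4% were higher and 55.6% lower in replicate 2, with a median of -0.03. The erythroid list was 1.84 times as high in replicate 2 as in replicate 1, the endothelial list 0.949 times and the mesenchymal list 0.961 times. In the erythroid list only Mir451a was higher in replicate 2, by 1.29 in log2, while Mir144 was at -0.13 and Mir486 at -0.02. The part of these lists in the differences by seed was not tested.

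By the ratio of the libraries, the 3 genes most like Mir93 among those with at least 1000 counts in each library were Mir351, Mir194-2 and Mir20a, at 0.23, 0.23 and 0.22 in log2. The genes most like Mir92-2, which has the highest mean of the X-linked cluster, were Mir1983, Mir532 and Mir485, at -0.17, -0.18 and -0.17. This likeness rests on 2 libraries. By mean level, Mir93 (18259.7 ± 2017 CPM) stood beside Mir143 and Mir127, at 18031 ± 716 and 18018 ± 391 CPM. Mir106b (10802 ± 599.9 CPM) stood beside Mir22 and Mir154, at 10685.5 ± 283 and 10421 ± 45.9 CPM, and Mir25 beside Mir542 and Mir196b, at 955 ± 4.76 and 972 ± 52.7 CPM.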

How the data were processed

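Small RNA below 30 bases from 2 libraries was counted by the authors, and their deposited values are unscaled counts per gene; the build was mm10 with GENCODE M4, per the file lists and labels. Aligner and counter: not given in the sources used here. The deposited tables have no header: columns 2 to 4 were read from the values as both strands, the strand of the gene and the opposite strand, because column 2 is the sum of the others in every gene and column 3 holds most counts. Column 3 was used, and rows that name no gene were left out. Identifiers were matched to GENCODE M21 on the same build (1894 of 1973 genes). CPM, shares with exact Clopper-Pearson 95% intervals and the library test were computed with Python 3.11.15 and scipy 1.17.1. TMM sizes came from edgeR 4.0.16 and size factors from DESeq2 1.42.0, both as alternatives; the common dispersion gave a biological coefficient of variation of 13.3%. The library test was tested on simulated counts. Hairpins were searched for runs of 20 bases shared with other loci on either strand. Efficiency of adapter ligation differs between sequences and was not measured, which limits comparisons of levels between genes. The members and lists were chosen with earlier results of these data known. The genes named beyond them were, by rule, the nearest in mean level to the 3 highest members and the nearest in library ratio to the highest member of each cluster. A gene row holds both arms of a hairpin.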

Additional observations from a re-analysis of the deposited data

How the results depend on the processing

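The alternatives were reads of both strands, TMM and DESeq2 scaling, all reads as the total, other count limits, only genes without a shared run, and each library alone. With reads of both strands the levels were 26880 CPM for miR-106b-25, 807 CPM for miR-106a-363 and 80905 CPM for the Mir17hg cluster, since the total grew. With all reads of the library as the total they were 10226, 307 and 30782 CPM for the same clusters. Without the genes that share a run of 20 bases, the log2 ratio of miR-106b-25 over miR-106a-363 was 5.58. That of miR-106b-25 over the Mir17hg cluster was -1.45, and that of miR-106a-363 over the Mir17hg cluster was -7.02. This setting leaves those genes out and does not restore reads that were not assigned. With genes under 10 counts left out, in total or in each library, 5 members were called in place of 3, because fewer genes were tested. Mir25 turned sign, uncalled, to 0.020 with TMM, 0.016 with DESeq2 and 0.012 with totals without Mir451a. Under these 3 settings Mir106a was called too. Levels under TMM and DESeq2 scaling and the 15 shares under both strands moved by less than 1 SD. Leaving out a library cannot move a mean of 2 by 1 SD: miR-106b-25 ran from 29017 to 31014 CPM. No paired analysis was possible because both libraries belong to 1 group. Low counts limit Mir18b and Mir19b-2.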

Other observations

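The annotated length of the mature strand ran with the difference between the libraries in these families, a pattern seen after the values. The 5 members with a mature strand of 23 bases were all higher in replicate 2, by 0.04 to 0.50 in log2. The 4 members of 21 or 22 bases, Mir106b, Mir92-2, Mir25 and Mir363, were all lower, with Mir25 at -0.01 and turning to 0.02 with TMM scaling. With the Mir17hg cluster, Mir32 and Mir92b added, 9 of 10 genes of 23 bases were higher and all 7 genes of 21 or 22 bases were lower. Over all detected genes whose annotated arms share 1 length, the medians were -0.07 for 24 genes of 21 bases, -0.05 for 132 genes of 22 bases and -0.06 for 16 genes of 23 bases. That set leaves out genes with arms of unequal length, while the members were sorted by their seed-bearing strand alone. Among the members, family and length part at 1 gene: Mir106b, of the miR-17 family but with 21 bases, was lower in replicate 2, as were the miR-25 family genes. The tables hold no read lengths, and the part of length in these differences was not tested.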
